A study of Homo sapiens with 46 samples.

Results

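The 10 genes described here encode the cytoplasmic actins and the main cellular tubulins: ACTB and ACTG1 (β- and γ-actin), TUBA1A, TUBA1B and TUBA1C (α-tubulins), and TUBB, TUBB2A, TUBB2B, TUBB3 and TUBB4B (β-tubulins). They were chosen by gene symbol, with no measured value in the rule, from the deposited count tables that hold each cell type on its own transcript assembly. They were 10 of 22693 genes listed in the 4 tables together, and all 10 were listed in every table. Their transcripts numbered 21 of 32819 in the hPSC table, 17 of 54325 in ectoderm, 25 of 30409 in endoderm and 17 of 36407 in mesoderm. Each gene sum passed the filter on low counts in every comparison.

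Actin monomers assemble into filaments that shape the cell cortex, pull on adhesions and drive crawling. Heterodimers of α- and β-tubulin assemble into microtubules, the tracks of intracellular transport and the spindle of dividing cells. Cells hold several near-identical genes for each protein, and the level of tubulin mRNA is known to be lowered when free tubulin dimers accumulate, by degradation of the mRNAs while they are translated in the cytoplasm. TUBB3 is widely used as a neuronal marker, TUBA1A is the main α-tubulin of developing neurons, and ACTB is widely used to normalise expression.

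RNA was sequenced from subcellular fractions of H1, a widely used line of human pluripotent stem cells (hPSC), and of cells derived from H1 in culture. The hPSC were kept in mTeSR1 on Matrigel. Endoderm cells were grown in RPMI with FBS, WNT3A and Activin A. Mesoderm cells were grown in DMEM/F12 with FBS, VEGF, BMP4 and bFGF, with Activin A present for the first day only, and ectoderm cells in DMEM/F12 with KOSR, A83-01, PNU-74654 and Dorsomorphin. Derived cells were collected after 5 days, and the labels name no sorting step. All groups come from 1 cell line. The fractions were cytoplasm (the supernatant of a mild NP-40 lysis over sucrose), nucleus (a portion of the pellet), and nucleoplasm and chromatin (supernatant and pellet of a nuclear lysis with urea). All lysis buffers contained α-amanitin, which blocks RNA polymerase II. The 46 libraries formed 16 groups, 15 of them with 3 libraries, and mesoderm nucleoplasm had 1 library.

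Library totals ran from 4990408 to 21298678 counts, and the 10 genes together took from 0.444% (endoderm chromatin) to 2.38% (endoderm cytoplasm) of a library. Several libraries went against what their fraction labels would give. Mitochondrial genes took 13.1 to 15.3% in hPSC nucleus, 8.15 to 10.2% in ectoderm nucleus and 8.09 to 16.1% in endoderm nucleus, against 0.399 to 1.58% in the cytoplasm of these 3 cell types, whereas in mesoderm they took 5.84 to 7.46% in cytoplasm and 1.11 to 1.36% in nucleus. Among 4 RNAs known to stay in the nucleus (MALAT1, NEAT1, KCNQ1OT1 and SNHG14), 3 were higher in ectoderm cytoplasm than in ectoderm nucleus, with a summed level of 1337 to 2469 against 92.7 to 441 CPM (counts scaled to 1000000 per library). In hPSC 2 of the 3 listed were higher in cytoplasm, with MALAT1 at 208 to 252 against 74.1 to 95.7 CPM. In endoderm 1 of 3 was higher and 1 lower in cytoplasm, and in mesoderm 3 of 4 were lower in cytoplasm. Of 4 abundant mRNAs used as cytoplasmic controls (RPLP0, RPS3, GAPDH and EEF1A1), 4 were higher in cytoplasm in hPSC, endoderm and mesoderm, and 0 were higher and 1 lower in ectoderm. The library labelled mesoderm chromatin replicate 3 stood apart, with a mitochondrial share of 5.53% against 1.12 and 0.769% in the other 2. Endoderm nucleus replicate 1 had a share of 16.1% against 8.09 and 10.5%. Fraction names below are the labels' names.

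The cell type labels were checked against marker lists, of which each table lists a different number of genes. In cytoplasm POU5F1, a pluripotency factor, measured 2595 to 3580.0 CPM in hPSC, 5.19 to 7.63 in ectoderm, 1544 to 1999 in endoderm and 808 to 935 in mesoderm. The pluripotency markers listed summed to 6006 to 6449 CPM in hPSC cytoplasm, 1994 to 2513 in ectoderm, 4390.3 to 4909.7 in endoderm and 2489 to 2605 in mesoderm, so each derived cell type still held some of them, and LIN28A alone gave 1531 to 1899.7 CPM in ectoderm. The neuroectoderm factor PAX6 measured 187 to 215 CPM in ectoderm cytoplasm, and the neuroectoderm list was higher there (837 to 1004 CPM) than in mesoderm cytoplasm (235 to 256 CPM). In nucleus its order was the reverse, 1019 to 1209 CPM in ectoderm and 1261 to 1586 CPM in mesoderm, where NES gave 1235 to 1552 CPM. The endoderm factors SOX17 and GATA4 measured 142 to 189 and 146 to 188 CPM in endoderm cytoplasm. HAND1, a mesoderm factor, measured 127 to 136 CPM in mesoderm cytoplasm and 47.5 to 72.3 CPM in endoderm cytoplasm, but TBXT, which defines early mesoderm, reached only 0.117 to 0.148 CPM in mesoderm and KDR was not listed there. The mesoderm list summed to 134 to 141 CPM in mesoderm cytoplasm against 32.7 to 38.3 in hPSC cytoplasm. In nucleus it went against the label, with 40.4 to 48.5 CPM in mesoderm and 396 to 469 CPM in hPSC, where KDR gave 391 to 463 CPM. Of the neuronal genes DCX was listed at no more than 0.401 CPM and STMN2 at no more than 3.98 CPM in the cytoplasm libraries. The neurofilament genes NEFM and INA held nearly all of that list, at 34.7 to 45.3 and 21.7 to 26.6 CPM in hPSC cytoplasm, 28.5 to 32.1 and 17.6 to 22.5 in endoderm, and 6.05 to 6.94 and 8.71 to 11.1 in ectoderm, and INA alone was at 27.4 to 32.4 CPM in mesoderm. In these bulk samples, fewer cells of a type and less RNA per cell cannot be told apart.

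On GRCh38, GENCODE release 29 places ACTB at chr7:5527147-5563784 and ACTG1 at chr17:81509971-81523847, both on the minus strand. TUBA1A (chr12:49184796-49189324, minus), TUBA1B (chr12:49127782-49131397, minus) and TUBA1C (chr12:49188736-49274603, plus) share 1 cluster. TUBB2A (chr6:3153669-3157526) and TUBB2B (chr6:3224261-3231730) are neighbours on the minus strand, TUBB lies at chr6:30720201-30725426, TUBB3 at chr16:89921392-89938761 and TUBB4B at chr9:137241213-137243707, all 3 on the plus strand. For every gene the same coding isoform held the largest share of counts in all 4 tables, from 85.6% (TUBB4B in endoderm) to 100.0%. Near-identical copies limit how far reads can be assigned. Of all windows of 100 bases in the main isoform, 54.4% of TUBB2A were identical to a transcript of TUBB2B, 18.3% of TUBA1A, 37.2% of TUBA1B and 11.5% of TUBA1C matched a transcript of another gene, and 89.0% of TUBB3 matched AC092143.1, an annotated gene that overlaps it. For ACTB and ACTG1 the shares were 0.175% and 0%. The split of counts within the TUBA1 and TUBB2 pairs and between TUBB3 and its overlapping gene is therefore uncertain.

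Besides the coding mRNAs, the tables list isoforms that GENCODE annotates as retaining an intron. The clearest were ACTB-207 and TUBB4B-202. TUBB4B-202 keeps intron 3 of 3 (chr9:137242022-137242495, 474 bases). ACTB-207 was higher in chromatin than in nucleoplasm in hPSC, ectoderm and endoderm, and TUBB4B-202 in endoderm, where the fitted change of the coding mRNA was negative, so the ends of the TUBB4B intron are shown from the GENCODE transcripts (GRCh38), with exon bases in lower case and intron bases in capitals, 5′ to 3′ on the gene's strand. The ends lie at chr9:137242002-137242061 and chr9:137242456-137242515.
TUBB4B intron 3, 5′ end: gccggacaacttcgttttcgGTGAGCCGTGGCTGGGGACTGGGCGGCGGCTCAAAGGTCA
TUBB4B intron 3, 3′ end: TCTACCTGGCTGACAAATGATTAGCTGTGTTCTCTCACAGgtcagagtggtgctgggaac
The intron opens with GT and closes with AG, the usual splice-site bases. A read inside such an intron can be counted for the isoform whether it came from a finished RNA that kept the intron or from a pre-mRNA not yet spliced, and these cannot be told apart.

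Levels between genes were compared on the authors' TPM, which is corrected for length, as the sum over a gene's isoforms (mean ± SD, n = 3). In hPSC cytoplasm the order was ACTB (3035 ± 991), ACTG1 (2186 ± 444), TUBA1B (2029.9 ± 271), TUBB (1312 ± 193), TUBA1C (519 ± 30.2), TUBB2B (379 ± 79.3), TUBB4B (327 ± 11.6), TUBB2A (232 ± 18.3), TUBA1A (196 ± 28.0) and TUBB3 (107 ± 17.3 TPM). The ranges of ACTB and ACTG1 overlapped, as did those of ACTG1 and TUBA1B, of TUBB2B and TUBB4B, and of TUBB2A and TUBA1A. Both genes of a pair were measured in the same libraries, so overlapping ranges do not show equal levels. Differences between genes were not tested. TUBA1B was thus the highest α-tubulin gene and TUBB the highest β-tubulin gene in hPSC. They kept these ranks in the cytoplasm of the derived cells, where TUBA1B measured 1691 ± 134 TPM in ectoderm, 2292 ± 237 in endoderm and 1519.9 ± 147 in mesoderm, and TUBB measured 1299.7 ± 143, 1473 ± 101 and 1104 ± 74.8 TPM in the same order.

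The minor tubulins changed places between cell types. In ectoderm cytoplasm TUBA1A came next after TUBB at 706 ± 54.5 TPM, while TUBB2A and TUBB3 were last at 52.2 ± 5.08 and 25.8 ± 3.76 TPM. In endoderm cytoplasm TUBB2B (557 ± 56.2 TPM) came next after TUBB, and TUBB2A, TUBB4B and TUBA1A overlapped at 376 to 457, 339.6 to 425 and 339 to 410.0 TPM. In mesoderm cytoplasm TUBA1A and TUBB4B overlapped at 259 to 307 and 277 to 310.0 TPM, and TUBB3 was last at 52.0 ± 3.23 TPM. TUBB3 was also last in endoderm cytoplasm (207 ± 22.2 TPM), and it had the lowest mean TPM of the members in every group. ACTG1 lay above ACTB in ectoderm cytoplasm (3039 to 3615 against 2396 to 2758 TPM, with no overlap), whereas the actins overlapped in endoderm (3892 to 4494 and 3821 to 4469 TPM) and in mesoderm (3931 to 4548 and 4065 to 4605 TPM). TUBA1C is left out of this order in the derived cells, because the authors' TPM per CPM, relative to ACTB, was 1.21 in the hPSC and ectoderm tables and 0.602 and 0.607 in the endoderm and mesoderm tables.

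**Figure D1:**
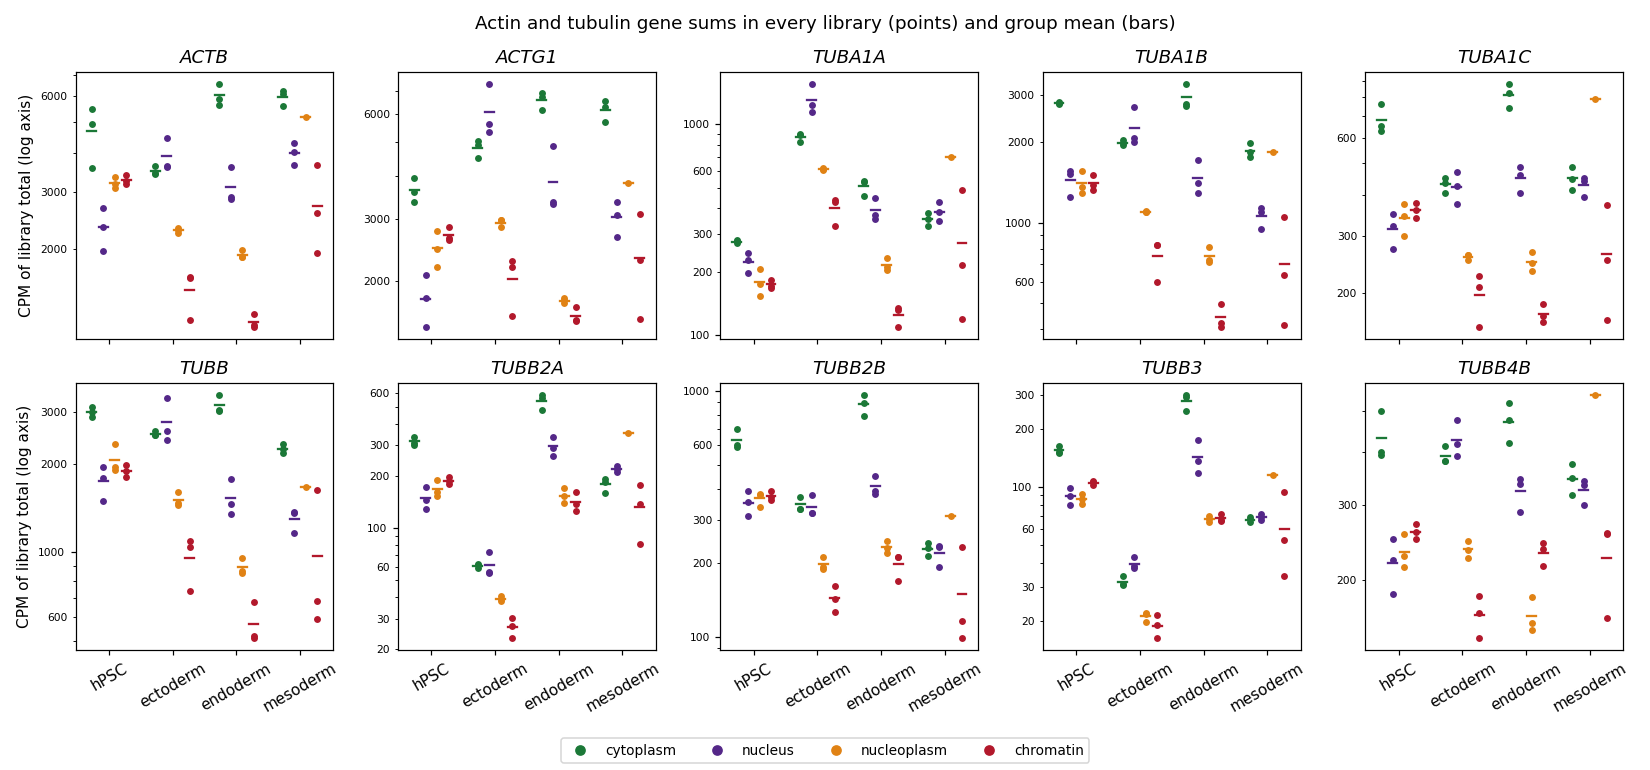
CPM of each gene sum (log axis) in every library, with 1 panel a gene, cell types along the horizontal axis and fractions in colour. Points are libraries and bars are group means. ACTB lies between 1137 and 6561 CPM in all libraries, while TUBB3 lies between 16.3 and 42.8 CPM in the ectoderm libraries.

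The first comparison asked, within each cell type, how the level in cytoplasm related to that in nucleus. In hPSC 9 of the 10 genes were higher in cytoplasm and 0 were lower, by 0.72 to 1.05 on the log2 scale (edgeR, TMM scaling), and TUBA1A did not pass. Of all genes tested in hPSC 65.4% were called, with 35.0% higher and 30.3% lower. In mesoderm 4 genes were higher and 0 lower (background 63.2%, 31.8% higher and 31.4% lower). In ectoderm 0 were higher and 7 were lower (background 53.7%, 27.2% higher and 26.5% lower). In endoderm 0 of 10 were called (background 69.7%, 34.3% higher and 35.4% lower), with 0 genes at an unadjusted p under 0.05 by edgeR, 1 called by DESeq2 and 7 by limma-trend on the authors' TPM.

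ACTB, β-actin, measured 3567, 4919.9 and 5492 CPM in the 3 hPSC cytoplasm libraries and 2684, 1961 and 2344 CPM in hPSC nucleus. All 3 cytoplasm libraries lay above the nucleus, with replicate 1 nearest to it. The log2 change was 0.93 ± 0.15 (SE, adjusted p = 0.000138). In mesoderm ACTB measured 6231, 5599.9 and 6092 CPM in cytoplasm and 3664, 4026 and 4283 CPM in nucleus, again without overlap, and the change was 0.69 ± 0.28 (SE, adjusted p = 0.0489). In ectoderm the cytoplasm libraries, at 3441, 3621 and 3427 CPM, overlapped with the nucleus libraries, at 3616, 4433 and 3639 CPM. After TMM scaling the ectoderm change was -0.52 ± 0.18 (SE, adjusted p = 0.0265). In endoderm ACTB measured 5906, 5655 and 6561 CPM in cytoplasm and 3607, 2901 and 2870.0 CPM in nucleus, which did not overlap, yet the scaled change was 0.19 ± 0.23 (SE, adjusted p = 0.47).

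ACTG1, γ-actin, showed the widest range between cell types. It measured 3369, 3582 and 3942 CPM in hPSC cytoplasm against 2074, 1473 and 1778 CPM in hPSC nucleus, a log2 change of 0.97 ± 0.14 (SE, adjusted p = 3.78e-05). In mesoderm it measured 6569, 5689 and 6279.8 CPM in cytoplasm and 2671, 3080.2 and 3361 CPM in nucleus, and the change was 1.13 ± 0.29 (SE, adjusted p = 0.00485). The ectoderm libraries held 5023, 4891 and 4504 CPM in cytoplasm and 5612, 7334 and 5353 CPM in nucleus, where every nucleus library lay above every cytoplasm library, and the change was -0.71 ± 0.20 (SE, adjusted p = 0.00941). In endoderm it measured 6889.8, 6167 and 6715 CPM in cytoplasm and 4853, 3309 and 3363 CPM in nucleus, with replicate 1 the highest nucleus library, and the scaled change was -0.00092 ± 0.26, or 0.44 without that library.

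Among the α-tubulins, TUBA1B measured 2781, 2814 and 2776 CPM in hPSC cytoplasm and 1563, 1247 and 1522 CPM in hPSC nucleus, and the log2 change was 0.88 ± 0.13 (SE, adjusted p = 3.59e-05). It was also higher in mesoderm cytoplasm, at 1981, 1759 and 1830.5 against 949, 1095 and 1134 CPM, by 0.92 ± 0.29 (SE, adjusted p = 0.0157). In ectoderm it was lower in cytoplasm with a change of -0.55 ± 0.19 (SE, adjusted p = 0.0256), from 1989, 2028 and 1949 CPM in cytoplasm and 2069, 2698 and 1999 CPM in nucleus, and these libraries overlapped. TUBA1C rose in hPSC cytoplasm by 1.05 ± 0.13 (SE, adjusted p = 1.09e-05), which was the largest change of the 10 in that comparison, and did not pass in the other cell types. TUBA1A, the α-tubulin of developing neurons, stood apart from its neighbours: it measured 273, 281 and 278 CPM in hPSC cytoplasm and 227, 197 and 245 CPM in hPSC nucleus, with a change of 0.25 ± 0.12 (SE, adjusted p = 0.0825). In ectoderm it had the largest fall of the 10 genes, -0.95 ± 0.18 (SE, adjusted p = 0.000683), from 895, 894 and 825 CPM in cytoplasm and 1234, 1554 and 1139.6 CPM in nucleus, with no overlap.

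Among the β-tubulins, TUBB measured 3000.0, 2881 and 3128 CPM in hPSC cytoplasm and 1955, 1488 and 1795 CPM in hPSC nucleus, a change of 0.72 ± 0.13 (SE, adjusted p = 0.000268). In mesoderm TUBB was higher in cytoplasm by 0.90 ± 0.34 (SE, adjusted p = 0.0349) and in ectoderm lower with a change of -0.51 ± 0.20 (SE, adjusted p = 0.0442). The ectoderm libraries of TUBB overlapped, at 2495 to 2591 CPM in cytoplasm and 2401 to 3344 CPM in nucleus. TUBB3 rose in hPSC cytoplasm, from 98.1, 80.1 and 89.0 CPM in nucleus to 151, 151 and 162 CPM, by 0.73 ± 0.10 (SE, adjusted p = 1.93e-05). In ectoderm TUBB3 was the lowest of the 10 genes, as in the other cell types. It measured 31.3, 30.7 and 34.1 CPM in ectoderm cytoplasm and 37.6, 42.8 and 38.6 CPM in ectoderm nucleus. It fell by 0.67 ± 0.14 (SE, adjusted p = 0.00147) in cytoplasm. TUBB2A, TUBB2B and TUBB4B were higher in hPSC cytoplasm by 1.02 ± 0.12, 0.78 ± 0.11 and 0.92 ± 0.13 (SE). None of these 3 passed in mesoderm or endoderm, and of them only TUBB4B passed in ectoderm, at -0.48 ± 0.15 (SE, adjusted p = 0.0136). Its ectoderm libraries overlapped too, at 381 to 414 CPM in cytoplasm and 391 to 475 CPM in nucleus.

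These calls depended on scaling and on single libraries to different degrees. In hPSC 9 or 10 genes were called when any 1 library was left out. In ectoderm the count was 2 without cytoplasm replicate 1 or without cytoplasm replicate 3, 3 without nucleus replicate 2, 6 without cytoplasm replicate 2, 9 without nucleus replicate 1 and 10 without nucleus replicate 3. In endoderm it was 8, all higher in cytoplasm, without nucleus replicate 1, the library with the mitochondrial share of 16.1%, and it was 1, TUBA1A lower in cytoplasm, without replicate 2 or without replicate 3 of nucleus. In mesoderm it fell to 2, or to 1 without nucleus replicate 1, and the calls of ACTB and TUBB were lost without any 1 of the 6 libraries and that of TUBA1B without nucleus replicate 1. With total counts in place of TMM the median of all genes moved by 0.35 in ectoderm and by 0.70 for endoderm. In ectoderm 1 of the 10 genes was then called and in endoderm 10, and TUBA1C (0.026) and TUBB2B (0.029) in ectoderm, called with neither scaling, were then above 0. The share of higher calls among all genes then moved from 50.7% to 76.4% in ectoderm and from 49.2% to 71.4% in endoderm. Relative to the median of all genes, the 10 genes in ectoderm had a median of -0.52 with TMM, -0.50 with total counts and -0.33 on the authors' TPM, and 0 of 10 were above it in any of these. In endoderm the relative medians were 0.14, 0.20 and 0.24. On the authors' TPM the median of all genes in mesoderm moved with a change of -0.82 and the share of higher calls from 50.3% to 10.6%, 0 members were then higher and 6 lower, and the relative median of the members turned from 0.19 to -0.14. In hPSC the share of higher calls moved from 53.6% to 33.8% on the TPM, with 5 members higher and 0 lower.

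Whether the cytoplasm-to-nucleus difference itself changed between cell types was tested as an interaction. In ectoderm it was lower than in hPSC for 10 of 10 genes, with changes from -0.91 (TUBB2B) to -1.48 (ACTG1) on the log2 scale, where 51.9% of genes tested were called, 27.4% higher and 24.5% lower. The value for ACTB was -1.25 ± 0.29 (SE, adjusted p = 0.00131) and for TUBA1B -1.23 ± 0.27 (SE, adjusted p = 0.000848). All 10 were called when any 1 of the 12 ectoderm and hPSC libraries was left out and with total counts, and 7 were called on the authors' TPM, where the share of higher calls among all genes moved from 52.7% to 82.2%. The 4 cytoplasmic control mRNAs were also lower in this contrast, 4 of 4 with a median of -1.41, and 2 of 2 nuclear RNAs were higher. The part of these fraction controls in the result was not tested.

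In endoderm 4 genes had a lower difference than in hPSC (background 37.9%, 19.6% higher and 18.3% lower): ACTG1 at -0.88 ± 0.31 (SE, adjusted p = 0.0327), TUBA1C at -0.86 ± 0.22 (SE, adjusted p = 0.00498), TUBB2A at -0.81 ± 0.24 (SE, adjusted p = 0.013) and TUBB4B at -1.03 ± 0.23 (SE, adjusted p = 0.00212). The count was 3 to 5 without any 1 library except 6 without endoderm nucleus replicate 2 and 8 without endoderm nucleus replicate 3, and it was 1 with total counts, when the median of all genes moved by 0.51 and the share of higher calls from 51.8% to 89.9%. In mesoderm 3 genes were lower (background 25.6%, 18.8% higher and 6.89% lower): TUBA1C at -0.81 ± 0.22 (SE, adjusted p = 0.0105), TUBB2A at -1.14 ± 0.25 (SE, adjusted p = 0.00203) and TUBB4B at -0.66 ± 0.23 (SE, adjusted p = 0.0434). The call of TUBB4B held in 2 of 12 fits with a library removed. With total counts 6 genes were lower in mesoderm and the share of higher calls went from 73.1% to 36.9%, and on the authors' TPM to 5.3%, with 9 genes lower. On the TPM the endoderm share was 94.6%, with 0 genes called. TUBA1C, TUBB2A and TUBB4B were thus called lower in each of the 3 derived cell types, which share the hPSC libraries as control, and ACTG1 in 2 of them.

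**Figure D2:**
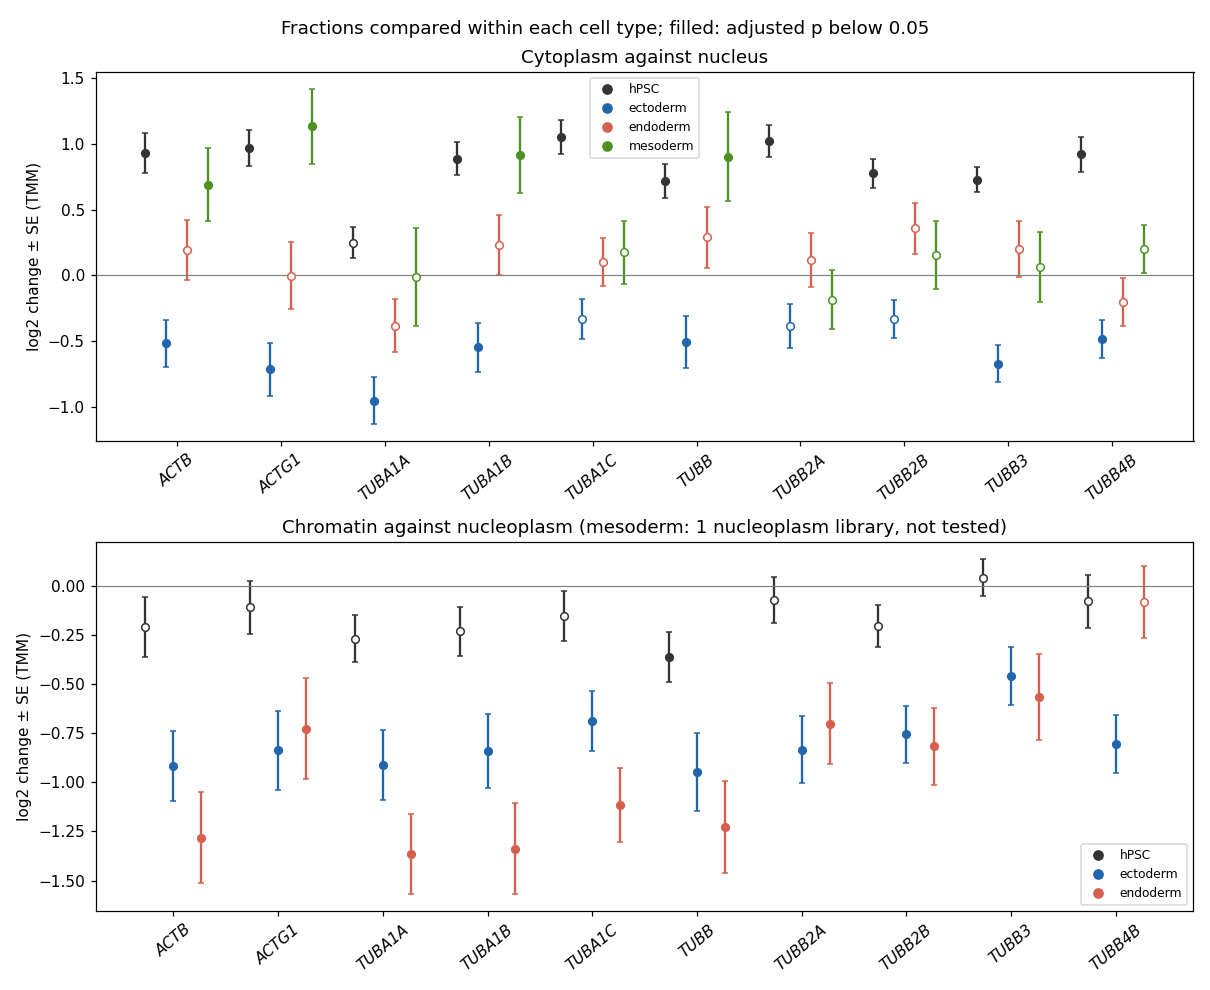
Log2 change ± SE of each gene sum between fractions of a cell type (TMM scaling), cytoplasm against nucleus above and chromatin against nucleoplasm below. Filled points have an adjusted p below 0.05 and colours are cell types. In the upper panel the hPSC points lie between 0.25 and 1.05 and the ectoderm points between -0.95 and -0.33, and with total counts 1 of the 7 ectoderm calls is left and TUBA1C (0.026) and TUBB2B (0.029) in ectoderm turn.

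The second comparison set chromatin against nucleoplasm, the insoluble and soluble parts of the nucleus. In ectoderm all 10 genes were lower in chromatin, with changes from -0.46 (TUBB3) to -0.95 (TUBB) on the log2 scale (background 44.1%, 18.5% higher and 25.7% lower), and in endoderm 9 were lower, from -0.56 (TUBB3) to -1.36 (TUBA1A) (background 53.4%, 22.9% higher and 30.6% lower). In hPSC 1 gene, TUBB, was lower, at -0.36 ± 0.13 (SE, adjusted p = 0.0489) (background 30.4%, 17.1% higher and 13.3% lower), and that call was lost without any 1 library. Mesoderm was not tested, since its nucleoplasm has 1 library.

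ACTB measured 2286, 2315 and 2237 CPM in ectoderm nucleoplasm and 1628, 1197 and 1614 CPM in ectoderm chromatin, and the change was -0.92 ± 0.18 (SE, adjusted p = 0.00128). In endoderm it measured 1879, 1984 and 1883 CPM in nucleoplasm and 1151, 1244 and 1137 CPM in chromatin, a change of -1.28 ± 0.23 (SE, adjusted p = 0.000281). In hPSC the values lay together, at 3198, 3090.0 and 3359 CPM in nucleoplasm and 3251, 3403 and 3189.6 CPM in chromatin, with a change of -0.21 ± 0.15 (SE, adjusted p = 0.327). TUBA1B, the main α-tubulin, had a change close to that of ACTB. It measured 725, 811 and 715 CPM in endoderm nucleoplasm and 421, 499 and 409 CPM in endoderm chromatin, with a change of -1.34 ± 0.23 (SE, adjusted p = 0.000196). TUBB4B was the exception in endoderm, where chromatin, at 236, 243 and 215 CPM, lay above nucleoplasm, at 152, 182 and 158 CPM, before scaling, and the scaled change was -0.08 ± 0.18 (SE, adjusted p = 0.737). In mesoderm ACTB measured 5185 CPM in the single nucleoplasm library and 2582, 1937 and 3655 CPM in chromatin, where replicate 3 was the highest.

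In ectoderm 9 or 10 genes were called when any 1 library was left out, the call of TUBB3 being lost in 5 of 6 such fits. In endoderm 6 to 8 were called, with 6 without chromatin replicate 3, and the calls of TUBB3 and ACTG1 were lost in 6 and 5 of the 6 fits. With total counts the median of all genes moved by 0.29 in ectoderm and 0.58 in endoderm, with 9 lower, and 5 lower and 1 higher (TUBB4B), and the share of higher calls went from 41.8% to 71.0% and from 42.8% to 73.8%. Relative to the median of all genes the members' median was -0.74 in ectoderm and -0.85 in endoderm with either scaling. On the authors' TPM it was -0.57 and -0.71, with 0 genes called in ectoderm. In hPSC 7 of the 10 genes turned from below to above 0 with total counts, none of them called with either scaling. The share of higher calls there went from 56.3% to 86.5% with total counts and to 96.7% on the TPM, where the median of all genes moved by 0.47, 6 members were called higher and their relative median was -0.06. The 4 cytoplasmic control mRNAs were lower in chromatin too, 4 of 4 in both ectoderm and endoderm, and 0 of 4 in hPSC. The part of cytoplasmic RNA in these differences was not tested.

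In chromatin, isoforms with a retained intron moved the other way. ACTB-207 made up 0.235, 0.268 and 0.332% of ACTB counts in endoderm cytoplasm, 2.19, 3.89 and 2.9% in nucleus, 1.21, 1.14 and 1.4% in nucleoplasm and 14.7, 14.5 and 15.6% in chromatin. The chromatin libraries lay far above all others. In counts, chromatin was higher than nucleoplasm by 2.11 ± 0.18 (SE, adjusted p = 2.13e-05), while the coding isoform ACTB-218 was lower with a change of -1.77 ± 0.22 (SE, adjusted p = 0.000193). Cytoplasm was lower than nucleus with a change of -2.91 ± 0.19 (SE, adjusted p = 1.64e-06) (of all isoforms tested in endoderm 42.1% were called between cytoplasm and nucleus, 19.3% higher and 22.9% lower, and 29.9% between chromatin and nucleoplasm, 11.8% higher and 18.1% lower).

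In ectoderm ACTB-207 took 15.98, 20.2 and 16.4% of ACTB counts in chromatin and 4.29, 3.98 and 4.58% in nucleoplasm, a change of 1.0040 ± 0.17 (SE, adjusted p = 0.00476) (background 13.9%, 4.51% higher and 9.37% lower). The nucleus, at 1.68, 0.616 and 1.39%, did not lie above the cytoplasm, at 1.16, 1.35 and 1.3%, while it did in the other 3 cell types, and the change of -0.35 ± 0.17 (SE, adjusted p = 0.229) did not pass (background 13.7%, 7.03% higher and 6.62% lower). In hPSC it took 3.65, 3.76 and 8.3% in chromatin, with replicate 3 the highest, 1.52, 1.62 and 1.35% in nucleoplasm, 2.98, 4.81 and 3.37% in nucleus and 0.741, 0.49 and 0.548% in cytoplasm. Chromatin was higher than nucleoplasm by 1.54 ± 0.26 (SE, adjusted p = 0.00829) and cytoplasm lower than nucleus with a change of -1.68 ± 0.26 (SE, adjusted p = 0.000585) (background 9.75%, 6.08% higher and 3.67% lower, for the first and 39.7%, 19.6% higher and 20.0% lower, for the second). In mesoderm it took 0.424, 0.331 and 0.461% in cytoplasm and 3.58, 2.7 and 2.96% in nucleus, a change of -1.99 ± 0.23 (SE, adjusted p = 0.000693) (background 32.0%, 15.3% higher and 16.8% lower). Mesoderm chromatin held 12.9, 13.6 and 5.28%, with replicate 3, the library that stood apart, the lowest. The calls of ACTB-207 named here held when any 1 library was left out.

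The other annotated intron-retaining isoforms were also higher in chromatin than in nucleoplasm where they were listed and tested. ACTG1-207, listed in the hPSC and endoderm tables, took 19.8, 19.4 and 18.4% of ACTG1 counts in endoderm chromatin and 0.302, 0.28 and 0.397% in cytoplasm. Its changes in endoderm were 2.58 ± 0.20 (SE, adjusted p = 1e-05) for chromatin against nucleoplasm and -3.29 ± 0.20 (SE, adjusted p = 1.2e-06) for cytoplasm against nucleus. In hPSC they were 1.40 ± 0.26 (SE, adjusted p = 0.0129) and -1.22 ± 0.26 (SE, adjusted p = 0.0043), and the first was lost without hPSC nucleoplasm replicate 1 or 3. GENCODE 29 holds another version of ACTG1-207 than was counted. No whole intron of the main ACTG1 isoform was found inside an exon of that version, so no intron is named for it. ACTG1-210, an isoform of coding type that keeps intron 1 (chr17:81512361-81512733, 373 bases), was listed in endoderm only, and changed by 2.02 ± 0.25 (SE, adjusted p = 0.000189) and -2.89 ± 0.26 (SE, adjusted p = 1.14e-05). TUBA1B-201, which keeps intron 1 (chr12:49129723-49131297, 1575 bases), was listed in hPSC only, where its share reached 1.71%, and it changed by 1.62 ± 0.34 (SE, adjusted p = 0.0186) for chromatin, lost without any 1 nucleoplasm library, and -1.74 ± 0.35 (SE, adjusted p = 0.0026) for cytoplasm.

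TUBB4B-202, listed in endoderm and mesoderm, reached the highest shares. It made up 39.2, 32.2 and 37.2% of TUBB4B counts in endoderm chromatin, 9.34, 6.43 and 8.47% in nucleoplasm, 7.92, 14.9 and 14.7% in nucleus and 0.675, 1.23 and 0.506% in cytoplasm. Its changes were 1.91 ± 0.23 (SE, adjusted p = 0.00015) for chromatin against nucleoplasm and -3.88 ± 0.25 (SE, adjusted p = 1.61e-06) for cytoplasm against nucleus. The coding isoform TUBB4B-201 was lower in endoderm chromatin, -0.79 ± 0.21 (SE, adjusted p = 0.0152), a call lost without chromatin replicate 3 or nucleoplasm replicate 2, so the gene sum that did not pass combined isoforms of opposite sign. In mesoderm the change of TUBB4B-202 was -2.18 ± 0.49 (SE, adjusted p = 0.0119) for cytoplasm against nucleus, and it took 14.3, 17.5 and 3.54% of counts in chromatin. ACTB-214, a short coding isoform of ACTB, was also higher in chromatin, with hPSC at 1.07 ± 0.20, ectoderm at 0.92 ± 0.19 and endoderm at 1.76 ± 0.25 (SE), the hPSC call being lost without nucleoplasm replicate 1. In mesoderm it was lower in cytoplasm with a change of -0.81 ± 0.27 (SE, adjusted p = 0.0493), lost without any 1 library. TUBB-206, a coding isoform that starts further downstream, fell in ectoderm cytoplasm by 2.15 ± 0.46 (SE, adjusted p = 0.0122), a call lost without cytoplasm replicate 1 or 2. ACTG1-202, also coding, was lower in endoderm chromatin with a change of -2.34 ± 0.55 (SE, adjusted p = 0.00817). The division of reads between isoforms of 1 gene is the authors' estimate, so these values are less certain than gene sums.

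**Figure D3:**
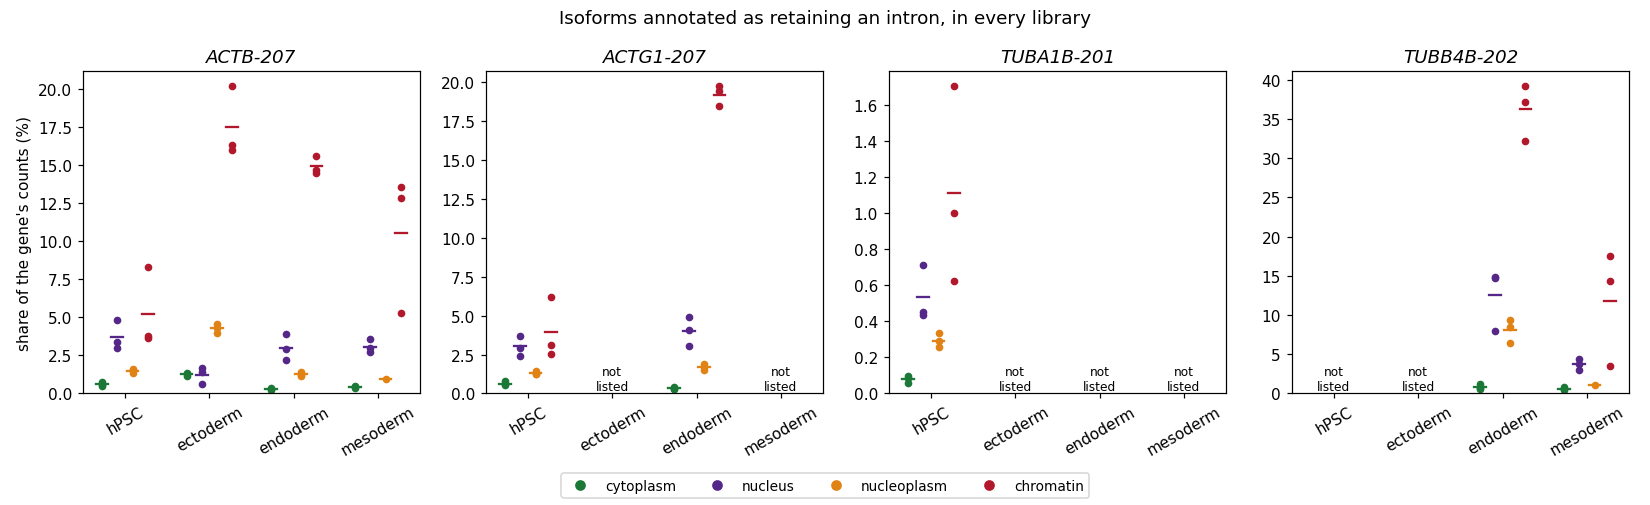
Share of a gene's counts (%, linear axis from 0) taken by each isoform annotated as retaining an intron, in every library, with 1 panel an isoform. Points are libraries, bars group means and colours fractions, and a cell type whose table does not list the isoform is marked. In endoderm chromatin is the highest fraction in the 3 panels that list it, reaching 39.2% for TUBB4B-202, and the lowest mesoderm chromatin point of ACTB-207, 5.28%, is replicate 3.

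The third comparison set each derived cell type against hPSC within a fraction, over 10707 genes listed in all 4 tables. In cytoplasm, ectoderm had 2 of the 10 genes higher and 7 lower (75.9% of genes called, 38.0% higher and 37.9% lower), endoderm had 5 higher and 0 lower (background 58.1%, 29.6% higher and 28.6% lower), and mesoderm had 2 higher and 7 lower (background 68.0%, 34.6% higher and 33.4% lower). In nucleus the counts were 7 higher and 2 lower in ectoderm (background 57.6%, 28.7% higher and 28.9% lower), 8 higher and 0 lower in endoderm (background 57.4%, 28.1% higher and 29.3% lower) and 1 of each in mesoderm (background 54.0%, 26.0% higher and 28.0% lower). In nucleoplasm they were 1 higher and 7 lower in ectoderm (background 79.7%, 39.9% higher and 39.8% lower) and 2 higher and 3 lower in endoderm (background 77.0%, 38.2% higher and 38.8% lower). In chromatin they were 1 higher and 8 lower in ectoderm (background 62.9%, 30.5% higher and 32.4% lower), 0 higher and 6 lower in endoderm (background 61.8%, 28.9% higher and 33.0% lower) and 0 higher and 4 lower in mesoderm (background 54.5%, 27.1% higher and 27.4% lower). Each comparison uses the same hPSC libraries of its fraction, and the assembly changes with the cell type.

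ACTG1 was higher than in hPSC in the cytoplasm of all 3 derived cell types. It measured 3369, 3582 and 3942 CPM in hPSC, 5023, 4891 and 4504 in ectoderm, 6889.8, 6167 and 6715 in endoderm and 6569, 5689 and 6279.8 in mesoderm, and all derived libraries lay above all hPSC libraries. The changes were 0.32 ± 0.14 (SE, adjusted p = 0.045) in ectoderm, 0.69 ± 0.14 (SE, adjusted p = 0.000698) in endoderm and 0.71 ± 0.14 (SE, adjusted p = 0.000354) in mesoderm, and the ectoderm call held in 2 of 6 fits with a library removed. ACTB, with 3567, 4919.9 and 5492 CPM in hPSC, did not pass in endoderm (0.21 ± 0.17) or mesoderm (0.31 ± 0.17) and was lower in ectoderm with a change of -0.49 ± 0.17 (SE, adjusted p = 0.0147), held in 4 of 6 such fits. The ectoderm cytoplasm libraries, at 3427 to 3621 CPM, overlapped with those of hPSC. In nucleus both actins were higher in ectoderm and endoderm, ACTB by 0.83 ± 0.26 and 0.83 ± 0.26 and ACTG1 by 1.87 ± 0.30 and 1.54 ± 0.30, so the sign of ACTB in ectoderm differed between nucleus and cytoplasm. In chromatin ACTB was lower in ectoderm with a change of -1.15 ± 0.22 (SE, adjusted p = 0.000384) and in endoderm with a change of -1.30 ± 0.22 (SE, adjusted p = 0.000183).

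TUBA1A was higher in ectoderm in every fraction. It measured 273, 281 and 278 CPM in hPSC cytoplasm and 895, 894 and 825 CPM in ectoderm cytoplasm, with 533, 454 and 537 CPM in endoderm and 380.2, 328 and 356 CPM in mesoderm. All derived libraries lay above the hPSC libraries, and the ectoderm changes were 1.57 ± 0.11 (SE, adjusted p = 6.01e-09) for cytoplasm, 2.64 ± 0.25 (SE, adjusted p = 9.27e-07) for nucleus, 1.72 ± 0.09 (SE, adjusted p = 2.38e-14) for nucleoplasm and 1.20 ± 0.33 (SE, adjusted p = 0.00628) for chromatin. It was also higher in endoderm in cytoplasm (0.70 ± 0.11 (SE, adjusted p = 6.23e-05)), nucleus (1.22 ± 0.24 (SE, adjusted p = 0.000732)) and nucleoplasm (0.80 ± 0.08 (SE, adjusted p = 1.51e-08)), but not in chromatin (-0.29 ± 0.33). The nucleoplasm libraries overlapped before scaling, at 203 to 232 CPM in endoderm and 153 to 206 CPM in hPSC. With total counts 0 members, and so not TUBA1A, were called higher in endoderm nucleoplasm. In mesoderm cytoplasm TUBA1A was higher by 0.30 ± 0.11 (SE, adjusted p = 0.0218), which held in 2 of 6 fits with a library removed. TUBA1B, by contrast, was lower in ectoderm and mesoderm cytoplasm, with a change of -0.57 ± 0.13 and -0.64 ± 0.13, and measured 2781, 2814 and 2776 CPM in hPSC, 1989, 2028 and 1949 in ectoderm and 1981, 1759 and 1830.5 in mesoderm.

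The β-tubulin TUBB3 had its highest cytoplasm level in endoderm and not in ectoderm. It measured 151, 151 and 162 CPM in hPSC cytoplasm, 31.3, 30.7 and 34.1 in ectoderm, 292, 249 and 299 in endoderm and 69.3, 65.1 and 68.0 in mesoderm. No 2 groups overlapped. The changes against hPSC were -2.35 ± 0.10 (SE, adjusted p = 4.07e-11) in ectoderm, 0.69 ± 0.09 (SE, adjusted p = 2.09e-05) in endoderm and -1.25 ± 0.10 (SE, adjusted p = 3.11e-08) in mesoderm. In ectoderm it was lower in the other fractions too, with a change of -1.08 ± 0.23 in nucleus, -2.09 ± 0.09 in nucleoplasm and -2.47 ± 0.25 in chromatin. TUBB2A followed the same order, with 337, 308 and 303 CPM in hPSC cytoplasm, 59.2, 61.3 and 61.8 in ectoderm, 564, 482 and 583 in endoderm and 184, 159.8 and 192 in mesoderm. Its ectoderm changes were -2.46 ± 0.12 (cytoplasm), -1.19 ± 0.23 (nucleus), -2.15 ± 0.09 (nucleoplasm) and -2.80 ± 0.22 (chromatin). TUBB2B was highest in endoderm cytoplasm as well, at 889, 794 and 959.7 CPM against 590.0, 606 and 697 in hPSC, 332, 333 and 372 in ectoderm and 240.0, 229 and 213 in mesoderm, and the endoderm change of 0.31 ± 0.11 (SE, adjusted p = 0.0209) held in 3 of 6 fits with a library removed. For TUBB4B in cytoplasm only the mesoderm change passed, at -0.37 ± 0.13 (SE, adjusted p = 0.0227), and it was lost without mesoderm cytoplasm replicate 2.

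Several of these counts depended on scaling and on single libraries. In mesoderm nucleus 2 genes were called, TUBA1A at 0.62 ± 0.24 (SE, adjusted p = 0.0384) and TUBB2B at -0.84 ± 0.21 (SE, adjusted p = 0.00426). The TUBA1A call was lost without any 1 library, and 9 genes were called with total counts, 5 with DESeq2 and 6 on the authors' TPM, on which the median of all genes moved by 0.79 and the share of higher calls from 48.2% to 88.4%. In ectoderm nucleus 5 genes were called without ectoderm nucleus replicate 2 or hPSC nucleus replicate 2, and 6 without hPSC nucleus replicate 3. With total counts in endoderm nucleus the median of all genes shifted (-0.39), the share of higher calls moved from 48.9% to 28.5%, and 7 genes were higher. With total counts in endoderm nucleoplasm it shifted too (-0.62), the share moved from 49.6% to 24.3%, and 9 genes were then lower and 0 higher, so the direction there rests on the scaling. Relative to the median of all genes the members' median was 0.04 in endoderm nucleoplasm under both scalings. In mesoderm chromatin 6 genes were called without chromatin replicate 3 and 2 without chromatin replicate 1. In ectoderm cytoplasm 6 were called without ectoderm cytoplasm replicate 1, and in endoderm chromatin 4 without endoderm chromatin replicate 3, the call of ACTG1 there being lost without any 1 library. On the authors' TPM the share of higher calls moved to 77.4% from 50.9% in endoderm cytoplasm, to 63.8% from 50.9% in mesoderm cytoplasm, to 29.4% from 49.9% in ectoderm nucleus, to 31.2% in endoderm nucleus, to 37.3% in endoderm nucleoplasm, to 36.4% from 46.7% in endoderm chromatin and to 65.7% from 49.7% in mesoderm chromatin.

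**Figure D4:**
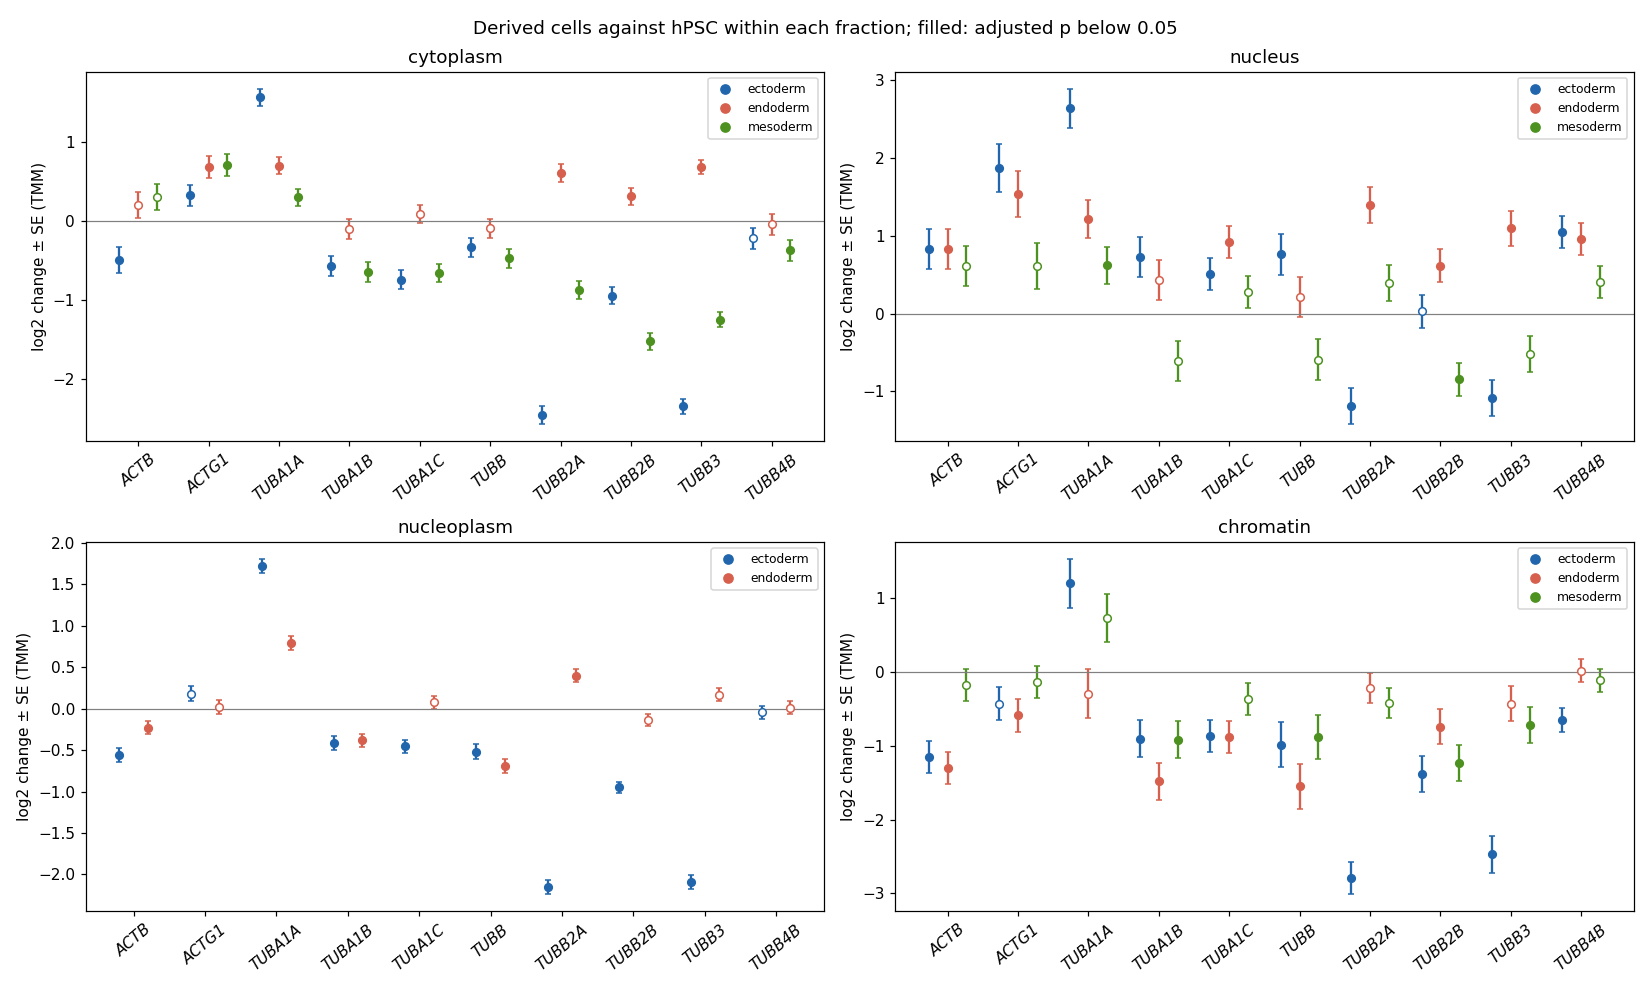
Log2 change ± SE of each gene sum in a derived cell type against hPSC, with 1 panel a fraction (TMM scaling). Filled points have an adjusted p below 0.05, colours are cell types, and mesoderm nucleoplasm is not drawn. TUBA1A in ectoderm lies above 0 in all 4 panels, from 1.20 to 2.64, and TUBB2A and TUBB3 in ectoderm lie below 0 in all 4; with total counts 9 endoderm genes are called lower in nucleoplasm.

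Other genes of both systems came from lists named with the members. Of 3 other actins listed in all tables, ACTA2 and ACTC1 rose in mesoderm cytoplasm by 3.61 ± 0.15 and 2.28 ± 0.14 (SE). These are the smooth muscle and cardiac α-actins. ACTA2 measured 7.08 to 9.84 CPM in hPSC and 106 to 116 in mesoderm cytoplasm, and ACTC1 measured 49.5 to 69.3, 7.43 to 9.09, 215 to 268 and 273 to 307 CPM in hPSC, ectoderm, endoderm and mesoderm. The smooth muscle markers moved with them: 3 of 3 tested were higher in mesoderm cytoplasm, where 34.6% of all genes were, with a summed level of 1190 to 1290 CPM against 251 to 320 CPM in hPSC. Among 6 other tubulins 3 were lower and 0 higher in mesoderm and in endoderm cytoplasm, and 3 were lower and 2 higher in ectoderm. Of all genes tested 75.9% were called in ectoderm, 58.1% in endoderm and 68.0% in mesoderm cytoplasm. TUBA4A fell furthest, by 5.00 ± 0.18 in ectoderm, 2.52 ± 0.16 in mesoderm and 1.25 ± 0.15 in endoderm on the log2 scale, from 83.3 to 86.8 CPM in hPSC to 2.65 to 3.08 CPM in ectoderm.

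Of 30 genes for actin binding and assembly, 25 were higher and 5 lower in hPSC cytoplasm than in nucleus, with a median change of 1.06 against 0.10 for all genes, of which 35.0% were called higher and 30.3% lower. The 5 that were lower were ACTN4, VCL, MYH9, ACTN1 and GSN, at -1.85 ± 0.15, -2.28 ± 0.14, -1.39 ± 0.16, -0.81 ± 0.11 and -0.43 ± 0.12. The 25 that were higher included profilin PFN1 (1.77 ± 0.19), thymosin TMSB4X (1.83 ± 0.22) and cofilin CFL1 (1.09 ± 0.16). A split of the list by function was not tested. Endoderm had 22 higher and 5 lower (34.3% of genes tested called higher and 35.4% called lower), mesoderm 23 higher and 5 lower (31.8% of genes tested called higher and 31.4% called lower) and ectoderm 8 higher and 10 lower (27.2% of genes tested called higher and 26.5% called lower). In chromatin against nucleoplasm 25 of the 30 were lower and 1 higher in ectoderm (18.5% of genes tested called higher and 25.7% called lower) and 23 lower and 1 higher in endoderm (22.9% of genes tested called higher and 30.6% called lower), the same direction as most actin and tubulin genes. Against hPSC in cytoplasm, PFN1 was lower in all 3 derived cell types, with a change of -1.86 ± 0.19, -0.70 ± 0.18 and -1.25 ± 0.19 in ectoderm, endoderm and mesoderm, and TPM1, a tropomyosin, was higher, by 1.98 ± 0.11, 0.31 ± 0.10 and 2.21 ± 0.11.

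Of 9 tubulin folding cofactors and ligases, 6 were lower and 2 higher in ectoderm cytoplasm, 3 lower and 0 higher in endoderm, and 5 lower and 1 higher in mesoderm. Of all genes tested in these comparisons, 37.9%, 28.6% and 33.4% were lower and 38.0%, 29.6% and 34.6% higher in ectoderm, endoderm and mesoderm. TBCB, TBCD and TBCE, which help to fold and join tubulin subunits, were lower in all 3, with TBCD at -1.56 ± 0.13, -0.54 ± 0.13 and -1.0048 ± 0.13. TTC5, which recognises nascent tubulin chains when tubulin mRNAs are degraded, passed in ectoderm only, at 0.31 ± 0.12. Of 10 microtubule-binding genes 4 were higher and 2 lower in ectoderm, 2 higher and 4 lower in endoderm, and 0 higher and 4 lower in mesoderm. In total 6, 6 and 4 of the 10 were called, where 75.9%, 58.1% and 68.0% of all genes were. DPYSL3 fell furthest in mesoderm, by 2.90 ± 0.17 on the log2 scale. Actin gene transcription is known to respond to SRF with its cofactors MRTFA and MRTFB. SRF was lower in ectoderm and mesoderm cytoplasm (-1.11 ± 0.14 and -0.70 ± 0.14), while MRTFB (1.23 ± 0.13 and 1.31 ± 0.13) and MRTFA (0.68 ± 0.13 and 0.53 ± 0.13) were higher. Named pseudogenes of the members summed to no more than 7.71 CPM in any library.

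Promoter windows from RefSeq (GRCh38.p14, 250 bases before to 50 after each start) matched 9 of the 10 genes, with 13 windows, and ACTB was not searched. The CArG box that SRF binds was searched on both strands and found in 1.29% of 35116 windows and in 1 of the 13 member windows, that of ACTG1. The stretch is shown with the CArG box in capitals (chr17:81512839-81512938, minus strand, the box 85 to 94 bases before the start).
ACTG1 promoter: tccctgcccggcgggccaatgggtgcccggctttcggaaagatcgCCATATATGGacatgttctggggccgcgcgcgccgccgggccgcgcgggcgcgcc
The motif CCAAT was found in 9 of the 13 member windows, from 7 genes, and in 34.6% of all windows. TATAAA was found in 1 member window (TUBB2A) and 11.5% of all, and TATATA in 3 member windows (TUBA1A, TUBA1C and TUBB4B) and 3.99% of all. Each motif was searched on both strands, and a match on either strand counted. A match describes the letters of the window only.

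Across the 16 group means, log2(CPM + 1) was compared with that of 9180 genes, as a description in which libraries, fractions and depth are shared. The genes most like TUBA1B were PPP2R1A (r = 0.986), MDH2 (0.980) and PSMB5 (0.968), and those most like TUBB were PSMB5 (0.980), EIF3I (0.971) and HNRNPC (0.969). ACTB was closest to ATP6V0D1 (0.935), EIF3D (0.931) and PIGC (0.929), and TUBB3 to ACY1 (0.961), PEPD (0.957) and TK1 (0.928). Among the members, TUBA1B with TUBB (r = 0.974) and TUBB2A with TUBB3 (0.967) were the most alike, while TUBA1A had negative values with TUBB3 (-0.29) and TUBB2A (-0.27).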

How the data were processed

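RNA-seq of 46 libraries was analysed from the tables of each cell type's own assembly. The deposited estimated counts and TPM per transcript were made by the authors with STAR and RSEM on hg38, per the submitters' processing notes; versions, the assembly method and filters are not given in the sources used here. Columns marked Nei were read as nucleus by elimination, and 1 column of no sample was not used. The mesoderm nucleoplasm column carried another replicate number than the title of its only sample, and was matched by group. Transcripts were summed per Ensembl gene, or per gene of the assembly where no Ensembl gene was given. The estimated counts were used as deposited, and as whole numbers in DESeq2. CPM are counts scaled to 1000000 per library.

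The main test was edgeR 4.0.16 (R 4.3.3), quasi-likelihood with TMM scaling, filterByExpr (minimum count 10) and Benjamini-Hochberg adjustment over all features, called at an adjusted p below 0.05. A comparison of fractions was fitted on every library of that cell type, and the interaction on the cytoplasm and nucleus libraries. A comparison with hPSC was fitted on every library of that fraction, except that the mesoderm nucleoplasm library was left out. SE is the log2 change divided by the square root of F. Alternatives were DESeq2 1.42.0, limma-trend (limma 3.58.1) on log2(TPM + 1), total counts, no filter, the replicate block, a 2-fold minimum and leaving out each library. The scripts were tested on simulated data.

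The members and lists were chosen with earlier results of these data known. All 10 members are named by gene sum. Isoforms are named where they hold the largest share, or where, at 10 CPM or more, they were called with a sign opposite to the gene sum or a log2 change of at least 2. TUBA1B-201, with a mean below 10 CPM, was named outside this rule as an isoform annotated as retaining an intron. Pathway genes are up to 3 of each list with the largest called change; the others named were chosen after their values were seen. Like genes are the 3 of highest r. The labels do not say that replicates are separate cultures, so p-values measure only the spread between these samples. Intron and promoter sequences came from GENCODE 29 and RefSeq.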

Additional observations from a re-analysis of the deposited data

Results flagged for a closer look

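The cytoplasm-to-nucleus change of 17 gene and cell type pairs differed from that in hPSC, by the interaction term of edgeR's quasi-likelihood test with Benjamini-Hochberg adjustment over all genes tested. Of all genes, 51.9% were called in ectoderm, 37.9% in endoderm and 25.6% in mesoderm, with 24.5%, 18.3% and 6.89% lower. With total counts 10, 1 and 6 members were called lower in the same order, and on the authors' TPM 7, 0 and 9. The values below are log2 differences, and negative values mean that cytoplasm held less relative to nucleus than in hPSC. In ectoderm they were ACTB (-1.25), TUBA1B (-1.23), TUBB2A (-1.20), TUBB2B (-0.91), TUBA1A (-0.9996), TUBA1C (-1.19), ACTG1 (-1.48), TUBB4B (-1.20), TUBB (-1.02) and TUBB3 (-1.20). In endoderm they were TUBB2A (-0.81), TUBA1C (-0.86), ACTG1 (-0.88) and TUBB4B (-1.03). In mesoderm they were TUBB2A (-1.14), TUBA1C (-0.81) and TUBB4B (-0.66). The 3 cell types share the hPSC libraries as control. The mitochondrial, nuclear and cytoplasmic control RNAs differed between fractions in other ways in each cell type, and their part in these values was not tested.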

How the results depend on the processing

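Counts of members called are given as the value under the alternative, after the main count. With total counts in place of TMM the counts that moved by more than 1.5 times were 1 to 0 for hPSC chromatin against nucleoplasm, 7 to 1 for ectoderm cytoplasm against nucleus, 0 to 10 for endoderm cytoplasm against nucleus, 7 to 16 for isoforms in endoderm cytoplasm against nucleus, 4 to 2 for mesoderm cytoplasm against nucleus, 2 to 9 for mesoderm against hPSC in nucleus, 5 to 9 for endoderm against hPSC in nucleoplasm, 4 to 1 for the difference between cytoplasm and nucleus in endoderm less that in hPSC and 3 to 6 for the difference between cytoplasm and nucleus in mesoderm less that in hPSC. With limma-trend on the authors' TPM the counts that moved by more than 1.5 times were 9 to 5 for hPSC cytoplasm against nucleus, 1 to 6 for hPSC chromatin against nucleoplasm, 5 to 12 for isoforms in hPSC chromatin against nucleoplasm, 7 to 1 for ectoderm cytoplasm against nucleus, 10 to 0 for ectoderm chromatin against nucleoplasm, 13 to 2 for isoforms in ectoderm chromatin against nucleoplasm, 0 to 7 for endoderm cytoplasm against nucleus, 7 to 13 for isoforms in endoderm cytoplasm against nucleus, 2 to 6 for mesoderm against hPSC in nucleus, 5 to 8 for endoderm against hPSC in nucleoplasm, 9 to 5 for ectoderm against hPSC in chromatin, 4 to 2 for mesoderm against hPSC in chromatin, 4 to 0 for the difference between cytoplasm and nucleus in endoderm less that in hPSC and 3 to 9 for the difference between cytoplasm and nucleus in mesoderm less that in hPSC. With DESeq2 the counts that moved by more than 1.5 times were 5 to 8 for isoforms in hPSC chromatin against nucleoplasm, 3 to 11 for isoforms in ectoderm cytoplasm against nucleus, 0 to 1 for endoderm cytoplasm against nucleus, 7 to 11 for isoforms in endoderm cytoplasm against nucleus, 2 to 5 for mesoderm against hPSC in nucleus and 3 to 5 for the difference between cytoplasm and nucleus in mesoderm less that in hPSC. Without the filter on low counts the counts that moved by more than 1.5 times were 1 to 0 for hPSC chromatin against nucleoplasm. With the replicate number as a block the counts that moved by more than 1.5 times were 1 to 0 for hPSC chromatin against nucleoplasm and 2 to 1 for mesoderm against hPSC in nucleus. With a change of at least 2-fold also required the counts that moved by more than 1.5 times were 9 to 2 for hPSC cytoplasm against nucleus, 12 to 7 for isoforms in hPSC cytoplasm against nucleus, 1 to 0 for hPSC chromatin against nucleoplasm, 7 to 0 for ectoderm cytoplasm against nucleus, 3 to 1 for isoforms in ectoderm cytoplasm against nucleus, 10 to 0 for ectoderm chromatin against nucleoplasm, 13 to 6 for isoforms in ectoderm chromatin against nucleoplasm, 9 to 5 for endoderm chromatin against nucleoplasm, 4 to 1 for mesoderm cytoplasm against nucleus, 9 to 3 for ectoderm against hPSC in cytoplasm, 5 to 0 for endoderm against hPSC in cytoplasm, 9 to 2 for mesoderm against hPSC in cytoplasm, 9 to 5 for ectoderm against hPSC in nucleus, 8 to 4 for endoderm against hPSC in nucleus, 2 to 0 for mesoderm against hPSC in nucleus, 8 to 3 for ectoderm against hPSC in nucleoplasm, 5 to 0 for endoderm against hPSC in nucleoplasm, 9 to 5 for ectoderm against hPSC in chromatin, 6 to 3 for endoderm against hPSC in chromatin, 4 to 1 for mesoderm against hPSC in chromatin, 4 to 1 for the difference between cytoplasm and nucleus in endoderm less that in hPSC and 3 to 1 for the difference between cytoplasm and nucleus in mesoderm less that in hPSC. With limma-trend on the authors' TPM the direction turned for TUBA1B (-0.72) and TUBB (-0.56) in the difference between cytoplasm and nucleus in mesoderm less that in hPSC. In ectoderm chromatin against nucleoplasm it turned for TUBA1C (0.061), TUBB2B (0.0010) and TUBB3 (0.29). In endoderm against hPSC in cytoplasm it turned for TUBA1C (-0.64). In endoderm against hPSC in nucleoplasm it turned for ACTG1 (-0.26), TUBA1C (-1.20) and TUBB4B (-0.30). In endoderm against hPSC in nucleus it turned for TUBA1C (-0.45). The TPM per CPM of TUBA1C, relative to ACTB, was 1.21 in the hPSC table and 0.602 in the endoderm table. The TUBA1C values on the TPM in endoderm against hPSC include this difference between tables. In endoderm chromatin against nucleoplasm the direction on the TPM turned for TUBB3 (0.081) and TUBB4B (0.45). In hPSC chromatin against nucleoplasm it turned for ACTG1 (0.47), TUBA1C (0.44), TUBB2A (0.51), TUBB2B (0.38), TUBB4B (0.51) and TUBB (0.22). In mesoderm against hPSC in nucleus it turned for TUBB2B (0.057) and TUBB3 (0.39). In mesoderm cytoplasm against nucleus it turned for ACTB (-0.46), ACTG1 (-0.023), TUBA1B (-0.24), TUBA1C (-0.97), TUBB2B (-0.99), TUBB3 (-1.08), TUBB4B (-0.95) and TUBB (-0.25). With total counts in place of TMM the direction turned for ACTG1 (-0.60), TUBA1C (-0.54), TUBB2A (-0.22), TUBB3 (-0.45) and TUBB4B (-0.60) in endoderm against hPSC in nucleoplasm. In endoderm chromatin against nucleoplasm it turned for TUBB3 (0.017) and TUBB4B (0.50). In endoderm cytoplasm against nucleus it turned for ACTG1 (0.78), TUBA1A (0.38) and TUBB4B (0.55). Without endoderm nucleus replicate 1 the direction turned for ACTG1 (0.44) in endoderm cytoplasm against nucleus. The values given as turned are those called in at least 1 of the fits set side by side. A further 29 values on the TPM and 23 with total counts turned with no call in either fit. In hPSC chromatin against nucleoplasm these were ACTB (0.36), TUBA1A (0.32) and TUBA1B (0.35) on the TPM, and 7 members with total counts, up to 0.16 (TUBB2A). With 1 library left out, the main count and the lowest and highest counts were 9, 9 and 10 for hPSC cytoplasm against nucleus, 12, 12 and 13 for isoforms in hPSC cytoplasm against nucleus, 1, 0 and 0 for hPSC chromatin against nucleoplasm, 5, 1 and 4 for isoforms in hPSC chromatin against nucleoplasm, 7, 2 and 10 for ectoderm cytoplasm against nucleus, 3, 0 and 8 for isoforms in ectoderm cytoplasm against nucleus, 10, 9 and 10 for ectoderm chromatin against nucleoplasm, 13, 8 and 12 for isoforms in ectoderm chromatin against nucleoplasm, 0, 0 and 8 for endoderm cytoplasm against nucleus, 7, 6 and 15 for isoforms in endoderm cytoplasm against nucleus, 9, 6 and 8 for endoderm chromatin against nucleoplasm, 16, 14 and 15 for isoforms in endoderm chromatin against nucleoplasm, 4, 1 and 2 for mesoderm cytoplasm against nucleus and 6, 3 and 3 for isoforms in mesoderm cytoplasm against nucleus. They were 9, 6 and 8 for ectoderm against hPSC in cytoplasm, 5, 4 and 5 for endoderm against hPSC in cytoplasm, 9, 8 and 9 for mesoderm against hPSC in cytoplasm, 9, 5 and 9 for ectoderm against hPSC in nucleus, 8, 6 and 8 for endoderm against hPSC in nucleus, 2, 1 and 1 for mesoderm against hPSC in nucleus, 8, 8 and 9 for ectoderm against hPSC in nucleoplasm, 5, 5 and 6 for endoderm against hPSC in nucleoplasm, 9, 8 and 9 for ectoderm against hPSC in chromatin, 6, 4 and 5 for endoderm against hPSC in chromatin, 4, 2 and 6 for mesoderm against hPSC in chromatin, 10, 10 and 10 for the difference between cytoplasm and nucleus in ectoderm less that in hPSC, 4, 3 and 8 for the difference between cytoplasm and nucleus in endoderm less that in hPSC and 3, 2 and 3 for the difference between cytoplasm and nucleus in mesoderm less that in hPSC. Deviations of same-numbered libraries from their group means correlated between fractions at r from -0.52 to 0.37 over genes. With groups of 3 these values cannot decide whether the samples were paired by number. With the block no other count moved by more than 1.5 times. The cause of these changes was not tested. Over the fits without 1 library, ACTG1 in endoderm cytoplasm against nucleus ran from -0.17 to 0.44. Groups of 3 limit the precision of every test, and totals from 4990408 counts in mesoderm chromatin limit the low genes most.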
